A study of Mus musculus with 9 samples.

Results

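The thioredoxin and peroxiredoxin system was examined in TAMH cells, a hepatocyte line that came from mice carrying a transforming growth factor alpha transgene, after 9 h with a viologen herbicide. The genes were taken by name. A gene counted as measured where the platform annotation gave a feature of the array that symbol and no other, and the brightest feature would have been kept had there been several. Of the 10 genes listed, 7 had such a feature: Txn1, Txn2, Txnrd1, Txnrd2, Srxn1, Prdx2 and Prdx3, each with 1. They are 7 of the 22180 genes tested. Prdx1 was annotated only on 3 features that also carry other symbols, and Prdx5 and Prdx6 were on no feature with a symbol, so these 3 genes are not analysed here.

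Sets of dishes of this cell line were compared, on 9 Affymetrix Mouse Gene 2.1 ST arrays, 3 a group. One set received 18 µM diquat, another 126 µM paraquat and the last medium alone, each for 9 h. All cells, between passages 30 and 40, were grown in a medium whose supplements include insulin, transferrin, dexamethasone, nicotinamide and selenium, the element that thioredoxin reductases carry as selenocysteine. The labels name no strain or clone and do not say whether the 3 dishes of a treatment were separate cultures, so the p-values measure the spread between these arrays, which may be technical. Values are log2 intensities from RMA, a method that corrects background, normalizes and summarizes probes. A difference of 1 on this scale is a 2-fold difference.

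Thioredoxins are small proteins that reduce disulfides in other proteins through a pair of cysteines. Thioredoxin reductases, selenoenzymes that draw on NADPH, return them to the reduced form. Peroxiredoxins use a reactive cysteine to remove hydrogen peroxide, and the typical 2-cysteine forms then depend on thioredoxin for their own reduction. Sulfiredoxin rescues peroxiredoxins whose cysteine has been oxidized too far. The cytosol and the mitochondria of liver cells hold separate sets: Txn1, Txnrd1 and Prdx2 encode mainly cytosolic proteins, and Txn2, Txnrd2 and Prdx3 mitochondrial ones. Txnrd1 and Srxn1 are known targets of NRF2, a transcription factor that binds antioxidant response elements together with small MAF proteins. Diquat and paraquat both accept electrons inside cells and pass them to oxygen, forming superoxide and, from it, hydrogen peroxide.

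The 2 members with all 3 arrays of either compound above all 3 control arrays were Txnrd1 and Srxn1, an order that 10.1% of all genes showed with diquat and 9.05% with paraquat. Their promoters are shown beside that of Txnrd2, the mitochondrial counterpart of Txnrd1. The sequences are from RefSeq, build GRCm38.p6, and each is the 250 bases before an annotated start, 5′ to 3′ on the strand of the gene. All 7 measured genes had at least 1 window in that table, 9 windows in all, of which Txnrd1 had 3. The Txnrd1 sequence shown is the second of its 3. Capitals mark matches to the motifs searched, on either strand.
Txnrd1, chr10:82858956-82859205, + strand: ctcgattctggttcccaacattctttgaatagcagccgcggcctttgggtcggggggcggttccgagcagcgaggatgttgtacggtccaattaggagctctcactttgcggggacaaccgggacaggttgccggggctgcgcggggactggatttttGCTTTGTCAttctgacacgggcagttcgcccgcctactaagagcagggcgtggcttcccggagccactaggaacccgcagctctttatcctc
Srxn1, chr2:152105274-152105523, + strand: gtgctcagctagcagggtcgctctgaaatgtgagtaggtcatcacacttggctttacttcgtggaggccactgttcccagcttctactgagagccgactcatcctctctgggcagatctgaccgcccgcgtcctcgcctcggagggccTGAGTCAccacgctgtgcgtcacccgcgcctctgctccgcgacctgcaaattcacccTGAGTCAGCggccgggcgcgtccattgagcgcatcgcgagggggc
Txnrd2, chr16:18426167-18426416, + strand: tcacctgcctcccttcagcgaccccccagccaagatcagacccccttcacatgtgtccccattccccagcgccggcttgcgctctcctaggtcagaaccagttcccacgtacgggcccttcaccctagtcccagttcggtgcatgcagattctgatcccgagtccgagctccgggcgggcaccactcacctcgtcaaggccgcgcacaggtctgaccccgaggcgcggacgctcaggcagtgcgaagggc

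Both strands were searched from 250 bases before to 50 bases after each start for these motifs: TGACNNNGC, the core of the antioxidant response element, TGANTCAGC, a form bound by NRF2 with small MAF proteins, and TGANTCA, the AP-1 site, which is contained in the previous one. In Txnrd1 the core occurred once, on the opposite strand from -92 to -84, and the other windows of this gene held none of the motifs. In Srxn1 TGAGTCAGC stood from -45 to -37, an AP-1 match without the final GC from -102 to -96, and a core match on the opposite strand from 29 to 37 after the start. The windows of Txn1, Txn2, Txnrd2, Prdx2 and Prdx3 held none. Of all 32851 windows in the table, 12.4% held the core, 1.19% TGANTCAGC and 7.81% the AP-1 site. Any of the 3 motifs stood in 19.0% of windows and in 21.4% of genes, so matches are common among genes at large. These matches describe the letters only. The array does not show which start was used.

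Before the comparisons, the arrays were checked. No array duplicated another. The array that stood farthest from its group mates was diquat replicate 3, by a root-mean-square difference of 0.134, against 0.0714 to 0.115 for the others. The other diquat arrays came next, at 0.102 and 0.115, above the paraquat arrays (0.0863 to 0.0878) and the controls (0.0714 to 0.0821). The main fit shared its estimate of the spread among the groups. For Txnrd1, Srxn1 and Prdx3 the diquat changes are given without diquat replicate 3 as well. The albumin gene Alb averaged 12.73 and the hepatocyte factor gene Hnf4a 10.63, as hepatocyte markers, and both keratin genes of hepatocytes, Krt8 and Krt18, lay at 11.97 and 11.60, while Serpina1a and Apoa2 lay at 7.29 and 7.06, the lowest of the 9 hepatocyte markers measured. Endothelial markers averaged between 5.29 and 6.23 and macrophage and Kupffer cell markers between 5.32 (Ptprc) and 7.87 (Cd68). The fibroblast and stellate cell markers averaged between 5.76 (Lrat) and 11.01 (Dcn). Of 9 hepatocyte markers measured, 3 passed lower and 0 higher with diquat (Ttr, Cps1 and Hnf4a), and 2 lower and 0 higher with paraquat (Ttr and Cps1). Over all genes, 7.02% passed with diquat and 4.57% with paraquat. The Hnf4a call lay at the threshold (adjusted p = 0.04999 in limma), and the alternative fits were not checked for the markers. The mean level of the hepatocyte list lay at 10.08 to 10.10 on diquat arrays, 10.06 to 10.15 on paraquat arrays and 10.23 to 10.28 on control arrays. Of 5 cholangiocyte markers, 1 passed higher and 2 lower with diquat, and 1 higher and 0 lower with paraquat. Their mean was 8.41 to 8.42 on diquat, 8.42 to 8.47 on paraquat and 8.33 to 8.40 on control arrays. Of 5 macrophage markers 1, Cd68, passed higher with diquat and 0 with paraquat, and none of the 5 fibroblast or 4 endothelial markers passed in either comparison. The part of these shifts in the results below was not tested, and in bulk RNA fewer cells of a type cannot be told apart from less RNA per cell.

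Txnrd1, which encodes the cytosolic reductase, was the member that rose with both herbicides. Its log2 intensity was 10.66, 10.64 and 10.68 on the diquat arrays, 10.50, 10.41 and 10.45 on the paraquat arrays, and 10.23, 10.26 and 10.24 on the control arrays. The 3 groups did not overlap, with diquat highest and control lowest. With diquat the change was 0.42 ± 0.04 (SE; 95% interval 0.34 to 0.50), a 1.33-fold rise, at an adjusted p of 0.000107 in limma. With paraquat it was 0.21 ± 0.04 (SE; 95% interval 0.13 to 0.29), a 1.16-fold rise, at an adjusted p of 0.00778 in limma. Ordered from the largest rise to the largest fall, Txnrd1 ranked 243rd of 22180 genes with diquat and 606th with paraquat. Without diquat replicate 3 the diquat change was 0.41 (adjusted p = 0.000543 in limma).

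**Figure D1:**
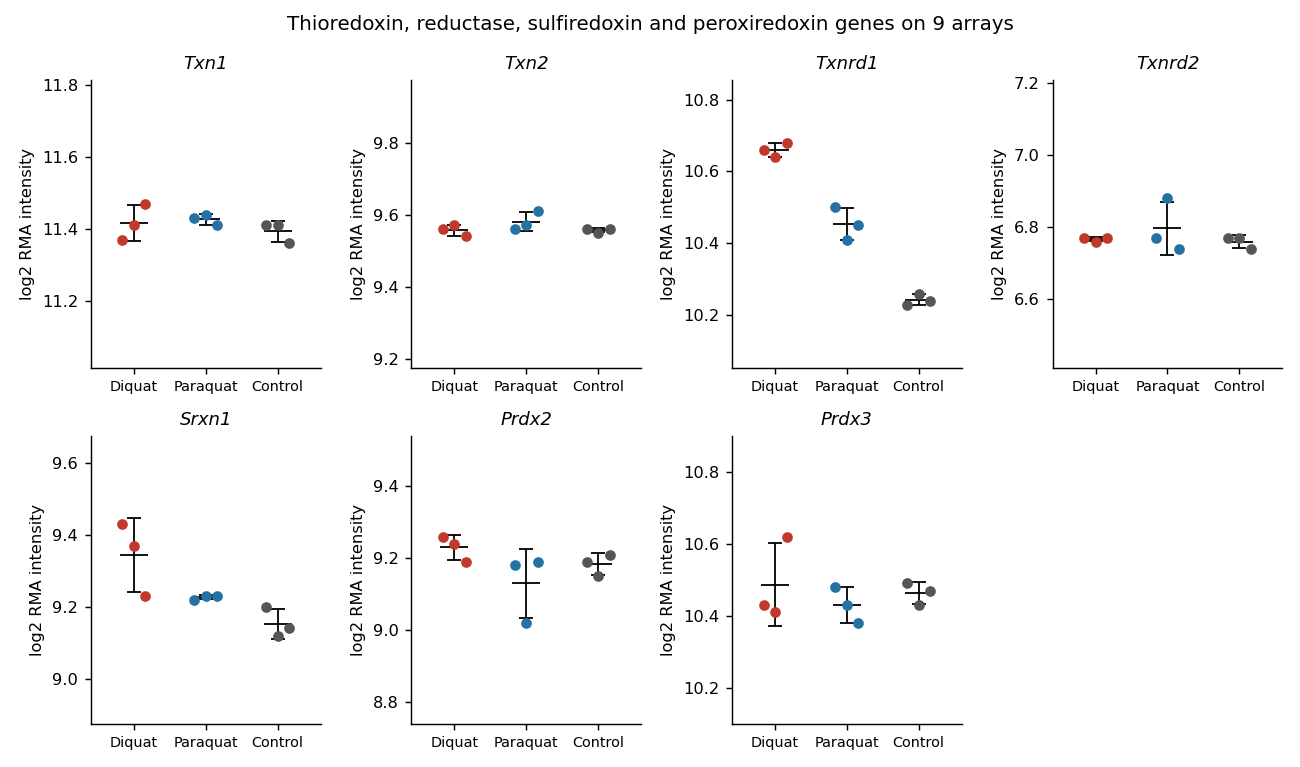
Log2 RMA intensity of the 7 measured genes on each array, with diquat, paraquat and control from left to right; dots are arrays, bars the mean and SD of 3, and every panel spans the same number of log2 units. The Txnrd1 groups are separate, at 10.64 to 10.68, 10.41 to 10.50 and 10.23 to 10.26, while Txn2 stays between 9.54 and 9.61 on all arrays.

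Srxn1, which encodes sulfiredoxin, stood higher on every treated array than on any control array but did not pass the test. Its values were 9.43, 9.37 and 9.23 with diquat, 9.22, 9.23 and 9.23 with paraquat, and 9.20, 9.12 and 9.14 in controls. Diquat replicate 3 lay below the other diquat arrays and level with the paraquat arrays. The log2 change with diquat was 0.19 ± 0.05 (SE; 95% interval 0.08 to 0.30; adjusted p = 0.0514 in limma). Without diquat replicate 3 it was 0.25 and passed (adjusted p = 0.00746 in limma). It also passed after centring the arrays, with an intensity trend and robust prior, with dim genes left out and with array weights (adjusted p = 0.0124 to 0.0409). Under the other 13 of 18 alternatives it did not pass (adjusted p up to 0.176 in limma), with changes down to 0.147. With paraquat the change was 0.07 ± 0.05 (SE; 95% interval -0.04 to 0.19; adjusted p = 0.608 in limma). The paraquat arrays lay just above the highest control.

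The thioredoxins themselves stayed within narrow limits. Txn1, the cytosolic form, had 11.37, 11.41 and 11.47 with diquat, 11.43, 11.44 and 11.41 with paraquat, and 11.41, 11.41 and 11.36 in controls. Its groups overlapped, and the changes were 0.02 (95% interval -0.06 to 0.11) with diquat and 0.03 (-0.05 to 0.12) with paraquat. Txn2, the mitochondrial form, had 9.56, 9.57 and 9.54 with diquat, 9.56, 9.57 and 9.61 with paraquat, and 9.56, 9.55 and 9.56 in controls. It varied least of the 7, by 0.07 over all 9 arrays, and its changes were 0.00 (95% interval -0.07 to 0.07) and 0.02 (-0.05 to 0.09).

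Txnrd2, the mitochondrial reductase, showed no separation of groups. Its values were 6.77, 6.76 and 6.77 with diquat, 6.77, 6.88 and 6.74 with paraquat, and 6.77, 6.77 and 6.74 in controls. One array, paraquat replicate 2, was the only one above 6.77. The changes were 0.01 (95% interval -0.08 to 0.10) with diquat and 0.04 (-0.05 to 0.13) with paraquat.

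The peroxiredoxin genes likewise overlapped between groups. Prdx2 had 9.26, 9.24 and 9.19 with diquat, 9.18, 9.02 and 9.19 with paraquat, and 9.19, 9.15 and 9.21 in controls, with paraquat replicate 2 the lowest array. Its changes were 0.05 (95% interval -0.06 to 0.16) and -0.05 (-0.16 to 0.06). Prdx3 had 10.43, 10.41 and 10.62 with diquat, 10.48, 10.43 and 10.38 with paraquat, and 10.49, 10.43 and 10.47 in controls. Diquat replicate 3 was the highest array for this gene, and without it the diquat change was -0.04 in place of 0.02. The Prdx3 change with paraquat was -0.03 (95% interval -0.16 to 0.09). For Txn1, Txn2, Txnrd2, Prdx2 and Prdx3 together, adjusted p-values in limma lay between 0.63 and 1 with diquat and between 0.739 and 0.886 with paraquat. Their 95% intervals reached from -0.10 to 0.16 with diquat and from -0.16 to 0.13 with paraquat.

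**Figure D2:**
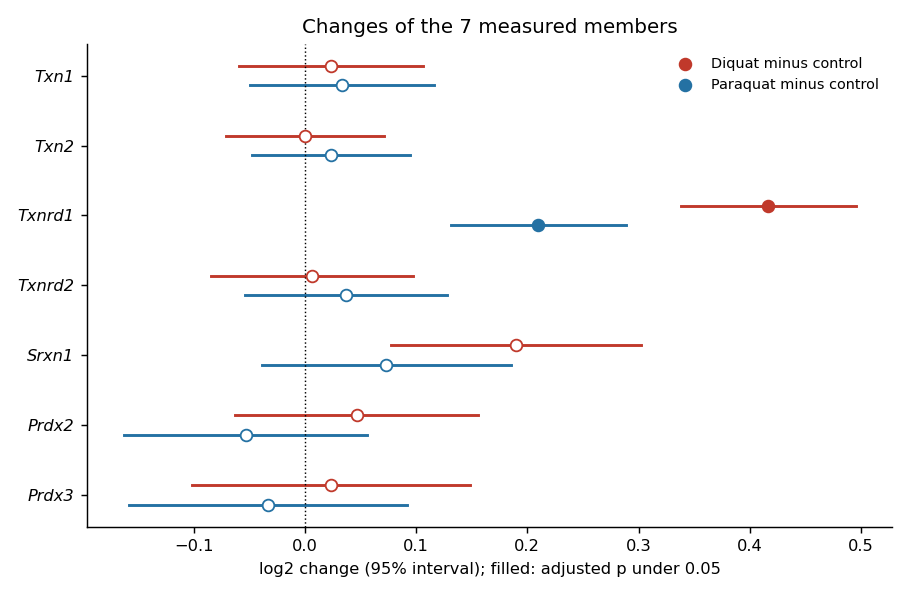
Log2 change of each measured gene against control, diquat above paraquat in each row, with limma's 95% interval; filled points passed an adjusted p of 0.05. Txnrd1 is filled for both compounds at 0.42 and 0.21, the Srxn1 interval with diquat starts at 0.08, and the other 5 genes have intervals that include 0.

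In all, 1 of the 7 measured members rose and 0 fell with diquat, where 7.02% of the genes tested were past limma's threshold, 4.13% upward and 2.89% downward. With paraquat 1 rose and 0 fell, where 4.57% were past it, 2.33% upward and 2.24% downward. No member had all 3 treated arrays below all 3 controls (0 of 7 for each compound), an order seen in 11.2% of all genes with diquat and 10.4% with paraquat. At an unadjusted p of 0.05, 2 of the 7 members lay past it with diquat and 1 with paraquat. Of all 22180 genes, 4783 and 3334 did. The median log2 change of the 7 was 0.02 with diquat and 0.03 with paraquat, against -0.02 and 0.00 over all genes. The 2 comparisons share their control arrays. Over all genes the share of calls that were higher was 58.9% with diquat and 51% with paraquat, against 77.5% and 55% after centring the arrays on their medians and 45.2% and 43.9% after a second quantile normalization. The number of genes past the test was 1558 with diquat, and 887, 802 and 1000 without control replicate 1, 2 or 3. With paraquat it was 1014, and 596, 574, 575 and 574 without control replicate 1 or 2 or paraquat replicate 2 or 3. The call on Txnrd1 was kept in each of these fits.

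The concentrations of the compounds differed, so the difference between them compares those 2 exposures and not equal doses. Between paraquat and diquat 0 of the 7 members and 0% of all genes passed limma's adjusted p. At an unadjusted p of 0.05, 2371 genes lay past it, among them 2 members. For Txnrd1 the difference was -0.21 ± 0.04 (SE; 95% interval -0.29 to -0.13; unadjusted p = 0.000163, adjusted p = 0.248 in limma), with all 3 paraquat arrays below all 3 diquat arrays, as for 5.18% of all genes. For Srxn1 it was -0.12 ± 0.05 (SE; 95% interval -0.23 to -0.0044; unadjusted p = 0.0431, adjusted p = 0.46 in limma), and the groups met at 9.23. The opposite order, with all paraquat arrays above all diquat arrays, held for 0 of the 7 and for 5.36% of all genes. The other 5 members differed by -0.10 to 0.03, with 95% intervals that reached from -0.21 to 0.12. These intervals do not show that the compounds act alike on those genes.

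Whether the cytosolic and mitochondrial genes of a kind changed unequally was asked with the log2 difference between the 2 features within each array. For Txnrd1 minus Txnrd2 this difference was 3.89, 3.88 and 3.91 with diquat, 3.73, 3.53 and 3.71 with paraquat, and 3.46, 3.49 and 3.50 in controls. Its mean was higher by 0.41 with diquat and by 0.17 with paraquat than in controls, and the groups did not overlap in either case. The exact two-sided permutation p was 0.1 in both, the smallest that 3 arrays against 3 can give, and 0.3 after Benjamini-Hochberg adjustment over 9 such comparisons. For Txn1 minus Txn2 the mean differed from control by 0.02 with diquat and 0.01 with paraquat, with overlapping groups (exact permutation p = 0.8 and 0.6, each 1 after adjustment). For Prdx2 minus Prdx3, a pair taken after Prdx1 proved not to be measured on its own, it differed by 0.02 and -0.02 (exact permutation p = 1 and 0.8, each 1 after adjustment). With 3 arrays a group this test could not pass the threshold, so it does not settle whether the genes of a pair changed unequally. Features also differ in how strongly they report a change.

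Of 55 further genes in 8 lists around the system, 8 passed higher and 6 lower with diquat and 6 higher and 4 lower with paraquat. That is 25.5% and 18.2% of the 55, where 7.02% and 4.57% of all genes passed. The lists were chosen with earlier results of these data known. Their median change was 0.00 and -0.03, against -0.02 and 0.00 over all genes. Txnip encodes the protein that binds reduced thioredoxin and blocks it. It fell with both compounds, with 8.48, 8.34 and 8.71 on diquat arrays, 8.84, 8.66 and 8.84 on paraquat arrays and 9.70, 9.62 and 9.64 on control arrays. The log2 changes were -1.14 ± 0.09 and -0.87 ± 0.09 (SE; adjusted p = 4.11e-05 and 0.000314 in limma). Of its alpha-arrestin relatives, Arrdc4 fell by 0.26 with diquat (adjusted p = 0.0179 in limma) and changed by -0.20 with paraquat (adjusted p = 0.0744), while Arrdc3 fell by 0.41 with paraquat (adjusted p = 0.00339 in limma) and changed by -0.14 with diquat (adjusted p = 0.203). The Arrdc4 call with diquat was lost without control replicate 1 or 2 (adjusted p = 0.0725 and 0.0825) and with only the 2 groups compared in the fit (adjusted p = 0.0672). The Arrdc4 change with paraquat passed under 4 of 18 alternatives, including that without diquat replicate 2 (adjusted p = 0.0351). The Arrdc3 change with diquat passed after a second quantile normalization (-0.18, adjusted p = 0.046).

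Txnrd3, the third reductase gene, encodes thioredoxin glutathione reductase, which carries a glutaredoxin domain and is best known from testis. Its values were 6.23, 6.14 and 6.40 with diquat, 6.02, 6.23 and 5.91 with paraquat, and 5.74, 5.77 and 5.73 in controls. All treated arrays lay above all control arrays, near the array medians of 5.95 to 6.04, a range where no detection call was used here. It rose by 0.51 ± 0.08 with diquat (SE; adjusted p = 0.00521 in limma). That call was kept whichever single array was left out, at 0.438 to 0.568 (adjusted p at most 0.0256). With paraquat the change was 0.31 ± 0.08 (SE; adjusted p = 0.0711 in limma). The paraquat change passed without diquat replicate 3 (adjusted p = 0.0444) and with array weights (adjusted p = 0.0209). Under the other 15 of 17 alternatives with a value it did not pass (adjusted p up to 0.211 in limma), with changes down to 0.218.

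**Figure D3:**
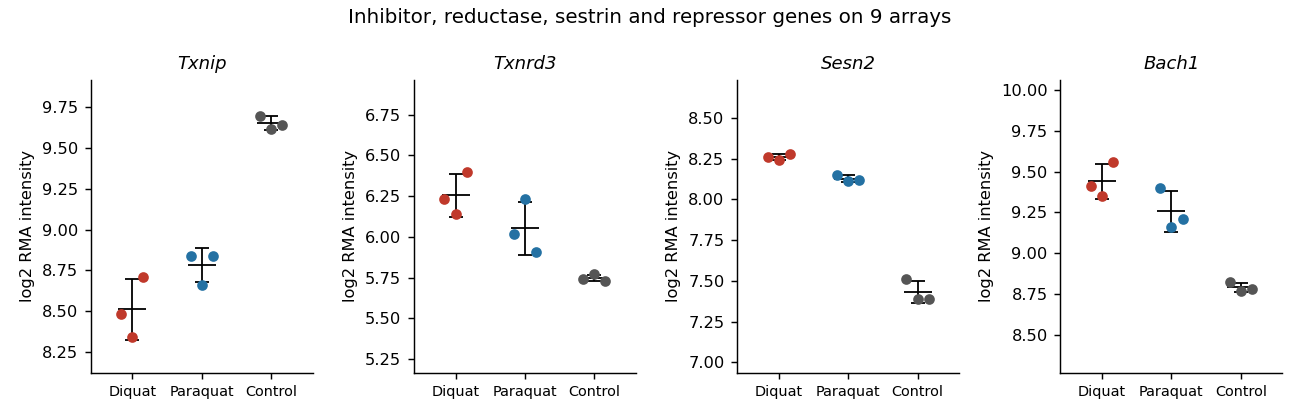
Log2 RMA intensity of Txnip, Txnrd3, Sesn2 and Bach1 on each array, with diquat, paraquat and control from left to right; dots are arrays, bars the mean and SD of 3, and every panel spans the same number of log2 units. Txnip lies below control on all 6 treated arrays, and the other 3 genes lie above control on all 6.

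Among 19 thioredoxin-like and thioredoxin-domain genes, 1 fell and 0 rose with each compound. That is 5.26% of the list, near the share of all genes past the test, 7.02% with diquat and 4.57% with paraquat. The gene was Txndc11, which encodes a thioredoxin-domain protein of the endoplasmic reticulum, and it fell by 0.41 with diquat and by 0.34 with paraquat (adjusted p = 0.00197 and 0.00681 in limma). Of 5 glutaredoxin genes, which form the glutathione-dependent counterpart of the system, Glrx alone fell with diquat, by 0.21 (adjusted p = 0.0109 in limma), and 0 rose. That call was lost without control replicate 1 (adjusted p = 0.0516) and after centring the arrays on their medians (-0.17, adjusted p = 0.0664). Its paraquat change of -0.15 did not pass (adjusted p = 0.0536). It passed under 7 of 18 alternatives, among them the fits without diquat replicate 2 or 3 (adjusted p = 0.0456 and 0.0391). No glutaredoxin gene passed with paraquat. Of 8 genes of proteins that thioredoxin or glutaredoxin serves, Rrm2, the small subunit of ribonucleotide reductase, fell by 0.21 with each compound (adjusted p = 0.0197 and 0.0226 in limma) and 0 rose. A second, dim Rrm2 feature changed by 0.03 and 0.06 and did not pass. The Rrm2 call with diquat was lost without control replicate 1 or 3 or diquat replicate 1, and with paraquat without control replicate 1 or 3 or any one of the paraquat arrays (highest adjusted p = 0.082 and 0.103). Centring the arrays ended both Rrm2 calls (adjusted p = 0.0814 and 0.0524), and with only the 2 groups compared in the fit the diquat call was lost (adjusted p = 0.0634). Averaging both Rrm2 features left changes of -0.09 and -0.08 (adjusted p = 0.396 and 0.645).

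Of the 3 sestrin genes, stress-induced regulators of growth signalling that have been linked to peroxiredoxin repair, Sesn2 rose with both compounds and Sesn3 fell with diquat. That is 66.7% of the list with diquat and 33.3% with paraquat, where 7.02% and 4.57% of all genes passed. Sesn2 had 8.26, 8.24 and 8.28 with diquat, 8.15, 8.11 and 8.12 with paraquat, and 7.51, 7.39 and 7.39 in controls. The log2 changes were 0.83 ± 0.04 and 0.70 ± 0.04 (SE; adjusted p = 2.62e-06 and 9.00e-06 in limma). Sesn3 fell by 0.23 with diquat (adjusted p = 0.0228 in limma), a call lost without any one of the 3 control arrays (adjusted p = 0.0585 to 0.0974), after centring the arrays (-0.20, adjusted p = 0.0898) and with only the 2 groups compared (adjusted p = 0.0693). With paraquat Sesn3 changed by -0.18 (adjusted p = 0.0886), which passed under 5 of 18 alternatives, including that without diquat replicate 2 (adjusted p = 0.0271). Of 8 genes of selenocysteine synthesis and insertion, Sars was the gene past the test with each compound. That is 12.5% of the list, against 7.02% and 4.57% of all genes. Sars encodes the seryl-tRNA synthetase that loads the selenocysteine tRNA with serine and also serves ordinary serine codons. It rose by 0.16 and 0.20 (adjusted p = 0.0388 and 0.0173 in limma). The Sars call with diquat was lost without any single array other than paraquat replicate 1 or 2 (adjusted p up to 0.142), and with paraquat without control replicate 1 or 3 or paraquat replicate 2 or 3 (adjusted p up to 0.0853). The diquat call on Sars was also lost after a second quantile normalization (0.13, adjusted p = 0.0961), with all features tested (adjusted p = 0.0551) and with only the 2 groups compared (adjusted p = 0.0643), so that 10 of 18 alternatives ended it.

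Of 7 genes for NRF2, the related factor NRF1, their repressors and the small MAF proteins, 5 rose with diquat and 4 with paraquat, and 0 fell, where 4.13% and 2.33% of all genes passed higher. Bach1, the haem-sensitive repressor of antioxidant response elements, had 9.41, 9.35 and 9.56 with diquat, 9.40, 9.16 and 9.21 with paraquat, and 8.82, 8.77 and 8.78 in controls. It rose by 0.65 ± 0.07 and 0.47 ± 0.07 (SE; adjusted p = 0.000396 and 0.00368 in limma). Leaving out single arrays kept both Bach1 calls, at 0.59 to 0.695 and 0.395 to 0.515 (adjusted p at most 0.00389 and 0.024). Mafk rose by 0.45 and 0.38, Mafg by 0.35 and 0.27, and Nfe2l1, which encodes NRF1, by 0.22 and 0.27 with diquat and paraquat. Maff rose by 0.38 with diquat (adjusted p = 0.0275 in limma) and changed by 0.35 with paraquat (adjusted p = 0.0546). The Maff call with diquat was lost without control replicate 1 or 2 (adjusted p = 0.103 and 0.114), with only the 2 groups compared (adjusted p = 0.0677) and with the replicate block (adjusted p = 0.0533). With paraquat Maff passed under 5 of 18 alternatives, including that without diquat replicate 2 (adjusted p = 0.0224). The Mafg call with paraquat was lost without any one of the 3 control arrays or without paraquat replicate 2 (adjusted p = 0.0502 to 0.111), or with only the 2 groups compared (adjusted p = 0.0647). Nfe2l2, which encodes NRF2, and Keap1, its cytosolic inhibitor, were not past the test, with Nfe2l2 changes of 0.05 and 0.00.

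**Figure D4:**
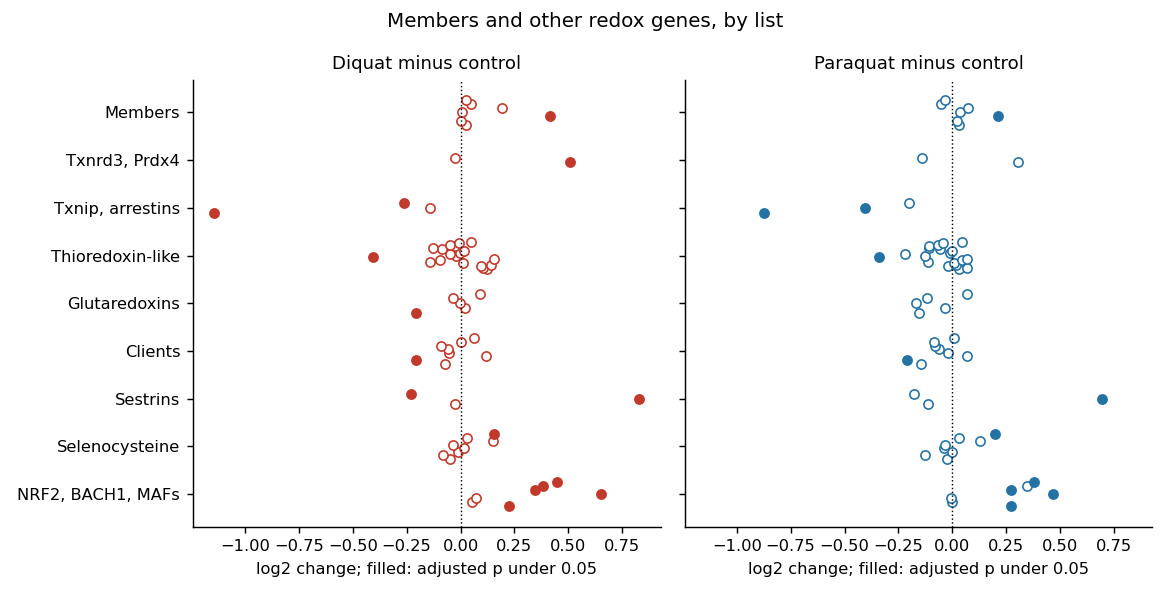
Log2 change of every measured gene of the 9 lists, diquat on the left and paraquat on the right; each point is a gene, and filled points passed an adjusted p of 0.05. The lowest point in both panels is Txnip at -1.14 and -0.87, and the highest is Sesn2 at 0.83 and 0.70.

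The genes whose pattern over the 9 arrays was most like that of Txnrd1 were Mllt11 (Pearson r = 0.993), Klhl21 (0.990), Lrrfip2 (0.984), Tec (0.980) and Tmem106a (0.980). Each stood highest with diquat: Mllt11 changed by 0.69 with diquat and 0.34 with paraquat, and Klhl21, which encodes an adaptor of a cullin ubiquitin ligase, by 0.41 and 0.23. For Srxn1 they were AA543186 (0.983), Prpf38a (0.972), Twnk (0.972), Tirap (0.953) and Sema4c (0.952). Of these, Twnk, the mitochondrial DNA helicase gene, changed by 0.32 with diquat and 0.13 with paraquat. These correlations are over 9 arrays in 3 groups and describe likeness only. They were chosen as the highest among the 22180 genes after predicted gene models and small RNAs were left out. The order of the groups in these genes follows from that choice.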

How the data were processed

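Total RNA of 9 TAMH samples was measured on Affymetrix Mouse Gene 2.1 ST arrays, 3 a group. The deposited log2 values were made by the authors with Affymetrix Expression Console 1.1 and RMA, per the submitters' processing notes. The settings of RMA were not stated in the labels. Neither raw scans nor detection calls entered the work, so dim values are not separated from background. The table held 34472 features with values from 3.89 to 13.19 at 2 decimals. No depth applies to arrays, and their number limits the precision. Groups and replicate numbers came from the sample titles.

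Features with 1 gene symbol in the platform annotation (23521) were used, which gave 22180 genes after keeping the brightest feature of each gene. All 9 arrays were fitted with lmFit and eBayes of limma 3.58.1 under R 4.3.3, as 1 mean per group without covariates, and with Benjamini-Hochberg adjustment over all genes at a threshold of 0.05. The fit was tested on simulated data in which 200 of the 22180 genes were changed, fewer than passed with either compound against control. It recovered 26% of log2 changes of 0.2 with diquat, 22% with paraquat and 18% between the compounds. Of changes of 0.3 it recovered 80%, 78% and 72%. False calls numbered 6, 5 and 7. The adjusted threshold depends on how many genes change, so recovery in the measured data can differ. Feature pairs were compared by exact two-sided permutation. All members are named, with the genes of the other lists past the test in either comparison with control and the 5 genes most correlated with Txnrd1 and with Srxn1 (predicted gene models and small RNAs left out). Nfe2l2 and Keap1 were named after their values were seen. The members and lists were chosen with earlier results of these data known. Replicate numbers were not used to pair the arrays in the main fit. Same-numbered deviations correlated between -0.192 and 0.198, with no differently numbered ones set beside them, so they do not show whether the arrays were paired. Other scalings, filters, weights, a replicate block and leaving out each array were tried.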

Additional observations from a re-analysis of the deposited data

How the results depend on the processing

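The rise of Txnrd1 kept its direction and its side of the threshold under all 18 alternatives, at 0.39 to 0.45 with diquat and 0.19 to 0.23 with paraquat (limma's adjusted p at most 0.00119 and 0.0421). Of 378 member values under the alternatives, 363 kept both, 5 newly passed, 0 were lost and 10 changed sign at 2 decimals. The 5 were all Srxn1 with diquat, which makes 2 members past the test after centring, with an intensity trend and robust prior, with dim genes left out, with array weights and without diquat replicate 3 (1 to 2 when leaving out single arrays). The cause was not tested.

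The sign changes were in values near 0. Centring gave -0.023 for Txn1 and -0.010 for Txn2 between paraquat and diquat. A second quantile normalization gave -0.010 for Txn1 and -0.013 for Prdx3 with diquat, and array weights gave -0.010 for Prdx3. When single arrays were left out, Prdx3 ranged from -0.043 to 0.062 with diquat and from -0.095 to 0.010 between paraquat and diquat, with the sign turned without diquat replicate 3. Txn1 ranged from -0.013 to 0.037 between the compounds, turned without diquat replicate 1. Txnrd2 ranged from -0.005 to 0.065 with paraquat and from -0.012 to 0.058 between the compounds, both turned without paraquat replicate 2. Maff ranged from -0.090 to 0.055 between the compounds, turned without diquat replicate 2 or paraquat replicate 2.

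Genes past the test with diquat numbered 1558, or 959 with only the 2 groups compared, and 802 to 1908 when single arrays were left out. With paraquat they numbered 1014, or 1045 with only the 2 groups compared, 1623 with array weights, and 574 to 1197 when single arrays were left out. Between the compounds they numbered 0, or 1 after centring, 4 after quantile normalization and 4 with dim genes left out, and 0 to 3 when single arrays were left out. With the replicate block 1416, 930 and 0 genes passed in the 3 comparisons and 1, 1 and 0 members, and the Txnrd1 minus Txnrd2 difference stayed at 0.41, 0.17 and -0.24. The block also ended the Maff call with diquat (limma's adjusted p = 0.0533). It changed no other call on a member or on a list gene past the test with either compound. The alternatives were not checked for the cell type markers, Nfe2l2, Keap1 or the genes most correlated with Txnrd1 and Srxn1. For both compounds the sample descriptions number replicates 2 and 3 as 1, so the block is uncertain. Txnrd3 had no value with dim genes left out, and the Prdx1 over Prdx3 pair was not run because Prdx1 had no feature of its own.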
